A study of Homo sapiens with 15 samples.

Results

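The 31 genes described here encode the chaperones, folding enzymes and quality-control machinery of the endoplasmic reticulum (ER). They were taken by gene name, with no threshold on their values, from a list drawn up when earlier results of these data were known: HSPA5, HSP90B1, HYOU1, DNAJB9, DNAJB11, DNAJC3, DNAJC10, SDF2L1, MANF, CRELD2, P4HB, PDIA3, PDIA4, PDIA6, TXNDC5, CALR, CANX, HERPUD1, EDEM1, SEL1L, SYVN1, DERL1, DERL2, DERL3, OS9, ERN1, XBP1, ATF6, SEC61B, SEC24D and WFS1. All 31 were present among the 57,773 genes of the MG-63 table and the 58,051 of the Saos2 table. The RNA came from MG-63 and Saos2 cells, established human osteosarcoma cell lines labelled wild type (WT), after 24 h with the vehicle (0.04% DMSO), (−)-didesmethylrocaglamide (DDR) or (−)-rocaglamide (Roc). These rocaglates are inhibitors of eIF4A, the helicase that opens mRNA for translation initiation, and DDR differs from Roc in lacking the methyl groups of the amide. Each was given at its growth IC50, which was 5 nM DDR and 25 nM Roc in MG-63 and 7 nM DDR and 40 nM Roc in Saos2. MG-63 groups held 2 libraries and Saos2 groups 3, giving 15, and the DMSO libraries of a line served both compounds. The labels call the libraries biological replicates, except 1 MG-63 Roc library labelled a replicate only, and do not say how the cultures were kept apart, so p-values measure the spread between these libraries.

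Secreted and membrane proteins fold in the ER, where the Hsp70 chaperone BiP (HSPA5) and the Hsp90 chaperone GRP94 (HSP90B1) hold unfolded chains, protein disulfide isomerases make and exchange disulfide bonds, and the lectins calnexin and calreticulin retain glycoproteins until they are folded. Chains that fail are sent back across the membrane and degraded (ER-associated degradation, ERAD). When unfolded chains accumulate, the sensors IRE1 (ERN1), ATF6 and PERK start the unfolded protein response, in which spliced XBP1 and cleaved ATF6 raise the transcription of chaperone genes through ER stress response elements in their promoters. Osteoblast-like cells load this system with collagen and other matrix proteins.

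The promoter letters are shown because they mark which members carry an exact match to those elements near the transcript start. RefSeq windows (GRCh38.p14, 250 bases before to 50 after the transcript start) were matched for 27 of the 31 genes, and DERL1, PDIA3, DERL3 and SEC24D had no entry in the table. The ER stress response element (ERSE) was searched on both strands as the exact letters CCAAT and CCACG 9 bases apart, and ERSE-II as ATTGG, 1 base and CCACG. ERSE was found in 6 of 27 windows (22.2%), against 22 of 27,305 windows of all genes (0.0806%). ERSE-II was found in 3 (11.1%), against 15 of all genes (0.0549%), and no site was counted under both. The list holds chaperone genes, the kind these elements serve, so the contrast is a description and no independent test. CCAAT and CCACG taken alone are common, in 35.7% and 37.9% of all windows. The matched stretches follow, 5′ to 3′ on the strand of the gene, with the boxes in capitals (ATTGG and CGTGG are CCAAT and CCACG read on the other strand).
HSPA5: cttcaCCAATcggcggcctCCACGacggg
HSP90B1 distal: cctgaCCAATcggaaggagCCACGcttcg
HSP90B1 proximal: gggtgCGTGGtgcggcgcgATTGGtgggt
CRELD2: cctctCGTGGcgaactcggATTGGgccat
CALR: ccacgCGTGGtcgaccatcATTGGtcggt
CANX: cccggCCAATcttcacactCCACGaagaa
XBP1: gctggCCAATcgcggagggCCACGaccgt
HYOU1 distal: gccccgtgaCGTGGtCCAATcccaggccg
HYOU1 proximal: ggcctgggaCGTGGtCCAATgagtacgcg
SDF2L1: cctcggaagCGTGGaCCAATcaaaaccct
HERPUD1: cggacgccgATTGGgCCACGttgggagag
Their positions are chr9:125241386-125241414 (minus strand) for HSPA5, chr12:103930211-103930239 and chr12:103930316-103930344 for HSP90B1, chr22:49918549-49918577 for CRELD2, chr19:12938379-12938407 for CALR, chr5:179698773-179698801 for CANX and chr22:28800598-28800626 (minus) for XBP1. Those of the ERSE-II stretches are chr11:119057371-119057399 and chr11:119057265-119057293 (minus) for HYOU1, chr22:21642105-21642133 for SDF2L1 and chr16:56932016-56932044 for HERPUD1. A match is a description of these letters and does not show that a factor was bound. Mismatched letters and bases outside the window were not searched, so a gene without a match may still carry an element.

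Counts over all genes summed to between 24,506,297 and 42,541,127 per library. Levels are given as CPM, the count over each 1000000 counts of tested genes after TMM scaling within a line. Raw gene counts were tested with the quasi-likelihood test of edgeR, with p-values adjusted by Benjamini-Hochberg over all genes tested in the line. A gene was called when its adjusted p was at most 0.05 and its log2 fold change at least 0.5 in size, the thresholds of the study's methods. Changes are log2 fold changes ± SE. Summed over 10 osteoblast lineage markers, the level lay between 3310 and 4370 CPM in MG-63 and between 2660 and 3330 in Saos2. Each line has its own scale, so the sums do not rank the lines. Of these markers 4 reached 1 CPM in MG-63 and 9 in Saos2. Nearly all of the MG-63 sum was COL1A1, COL1A2 and SPARC. There SP7, IBSP, ALPL, SPP1, BGLAP and DLX5 were at most 1.02 CPM in any library. RUNX2 lay between 5.49 and 12 CPM in MG-63 and between 451 and 578 in Saos2. The blood cell markers summed to at most 0.493 CPM in any library. Epithelial markers summed to at most 0.741 CPM in MG-63 and to between 16.2 and 23.4 in Saos2, nearly all of it EPCAM (15.6 to 22.9). Endothelial markers (PECAM1 was found by name in the Saos2 table alone) summed to between 2.18 and 2.72 CPM with DMSO in MG-63, mostly CDH5, and to between 0.368 and 1.2 with either compound, and in Saos2 to between 0.551 and 1.71. Their part in the results was not tested. In bulk RNA, fewer cells of a kind and less RNA per cell cannot be told apart.

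None of the 31 genes was called higher with either compound in either line, and the genes that moved fell. An unadjusted edgeR p under 0.05, in either direction, was reached by 15 genes with each compound in MG-63 and by 19 (DDR) and 21 (Roc) in Saos2, and DESeq2 and limma-voom also called 0 higher. In Saos2, 11 of 31 fell with DDR and 12 with Roc, against 6.73% and 10.4% of all genes tested there called lower, and 7.55% and 13.5% called higher. In MG-63, 4 of the 30 genes tested fell with DDR and 2 with Roc, against 7.74% and 2.53% of all genes called lower, and 9.01% and 4.57% called higher. The counts by role below are to be read against these shares, and no role was tested as a set. The median change over the members in MG-63 was −0.12 (DDR) and −0.13 (Roc), in Saos2 −0.30 and −0.34, against medians between −0.02 and 0.01 over all genes tested. Without a fold minimum, 4 members were higher and 9 lower with DDR in MG-63, so the smaller changes ran both ways there. In Saos2 the adjusted p alone called 18 lower with each compound and 0 higher. Shares of all genes at an unadjusted p, or without the fold minimum, were not counted. Member counts at those looser thresholds therefore have no background and are not to be read against the shares above. The sum of the members was 11120 and 12360 CPM with DMSO in MG-63, 9564 and 10560 with DDR, and 9944 and 11010 with Roc. In Saos2 it was 12930, 13070 and 13850 with DMSO, 9884, 10010 and 11180 with DDR, and 10680, 9126 and 10290 with Roc. In both lines every treated library lay below every DMSO library, by the least in MG-63 for 1 Roc library. With HSP90B1 left out of the sum, this held in Saos2 but not in MG-63. In MG-63 those sums were 9191 and 10190 CPM with DMSO, 8467 and 9434 with DDR, and 8621 and 9521 with Roc.

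**Figure D1:**
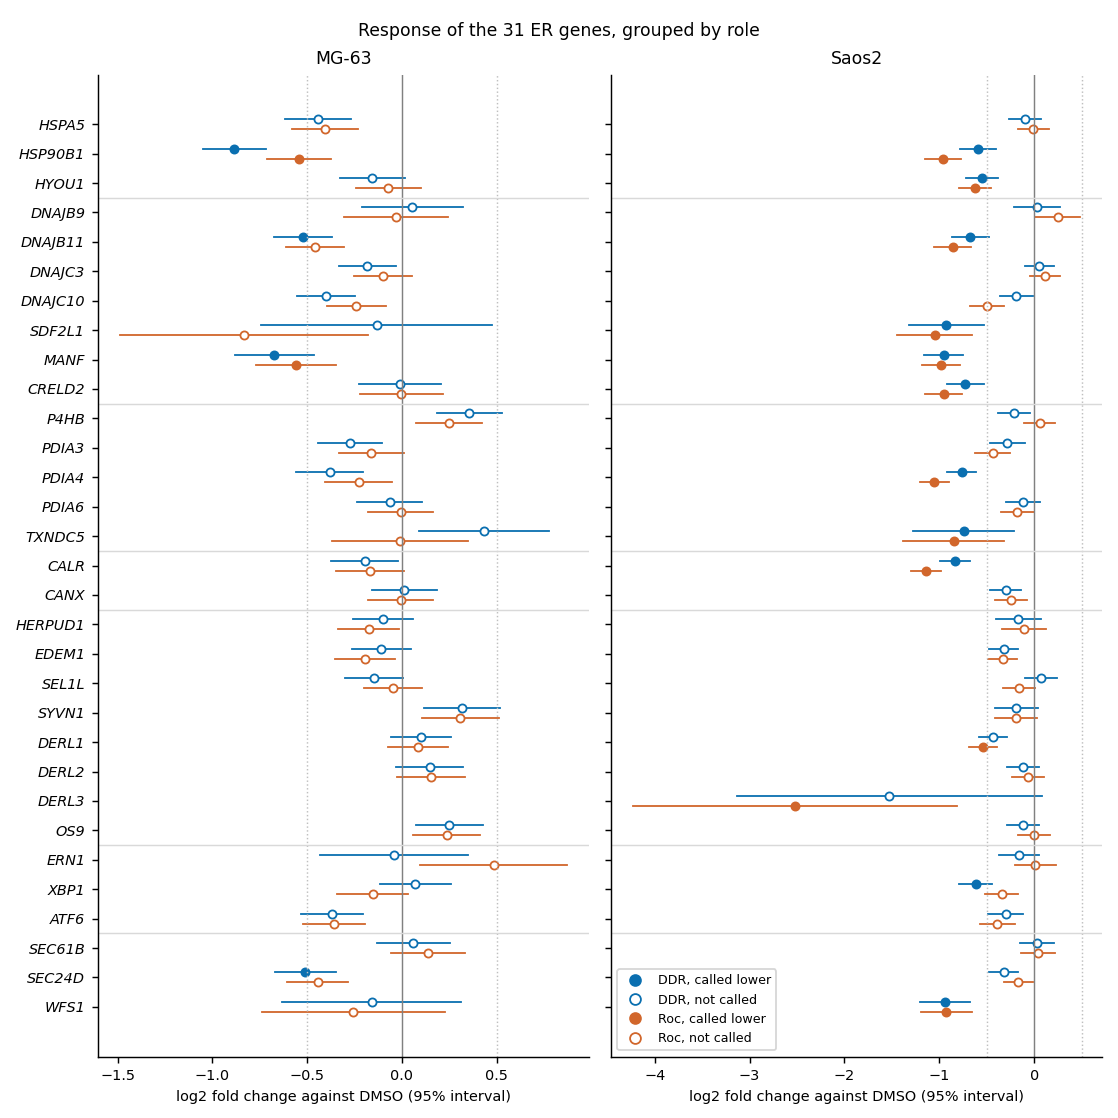
Log2 fold change of each gene against DMSO (x axis, with its 95% interval) in MG-63 (left) and Saos2 (right, on a wider scale), DDR in blue and Roc in orange, filled where the gene was called. No filled point lies right of 0, and DERL3 is missing on the left because its count was 0 in every MG-63 library.

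The 3 large chaperones did not move together. HSP90B1 (chr12:104323885-104347709, GRCh37), the GRP94 chaperone that folds integrins and Toll-like receptors, fell in every comparison. In MG-63 it lay at 1929 and 2174 CPM with DMSO, 1097 and 1127 with DDR and 1323 and 1491 with Roc. In Saos2 it lay at 1942, 2028 and 2275 CPM with DMSO, 1341, 1216 and 1584 with DDR and 1126, 974.4 and 1115 with Roc. No treated library reached the level of a DMSO library in either line. The change in MG-63 was −0.88 ± 0.08 with DDR (edgeR adjusted p = 1.7e-08) and −0.54 ± 0.08 with Roc (4.6e-05), in Saos2 −0.59 ± 0.09 (3.5e-05) and −0.96 ± 0.09 (2.3e-08). The Roc call in MG-63 fell under the fold minimum without DMSO replicate 2 (−0.45) or Roc replicate 1 (−0.47).

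HSPA5 (chr9:127997132-128003661) encodes the BiP chaperone, which binds unfolded chains and keeps the sensors inactive, and has an ERSE close before its start. HSPA5 was not called in any comparison. Its level in Saos2 was 1218, 1282 and 1333 CPM with DMSO, 1143, 1139 and 1299 with DDR and 1367, 1136 and 1307 with Roc, and these groups overlapped. The changes there were −0.10 ± 0.08 (95% interval −0.26 to 0.07) and −0.01 ± 0.08 (−0.17 to 0.16), and both intervals lie above the −0.59 of HSP90B1. In MG-63 the level was 899.3 and 1046 CPM with DMSO, 675.2 and 757.5 with DDR and 699.7 and 767.8 with Roc, each treated library below both DMSO libraries. The changes of −0.44 ± 0.08 and −0.41 ± 0.08 had edgeR adjusted p of 0.00024 and 0.0014 but were smaller than the fold minimum. They passed it with 1 library left out, at −0.54 with DDR and −0.51 with Roc without DMSO replicate 1, and at −0.53 with DDR without DDR replicate 2. HYOU1 (chr11:118914899-118927938), the Hsp110-type partner that exchanges nucleotide on BiP and has 2 ERSE-II boxes, fell in Saos2. It lay there at 518.6, 518.7 and 510.6 CPM with DMSO, 318.9, 387.4 and 352.9 with DDR and 358.6, 300.9 and 342 with Roc. The groups stood well apart, with changes of −0.55 ± 0.08 (adjusted p = 2.5e-05) and −0.63 ± 0.08 (2.1e-06), and the DDR value was −0.48 without DDR replicate 1. In MG-63 it lay between 97.25 and 119.3 CPM in all 6 libraries, with changes of −0.16 ± 0.08 and −0.07 ± 0.08 that were not called.

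**Figure D2:**
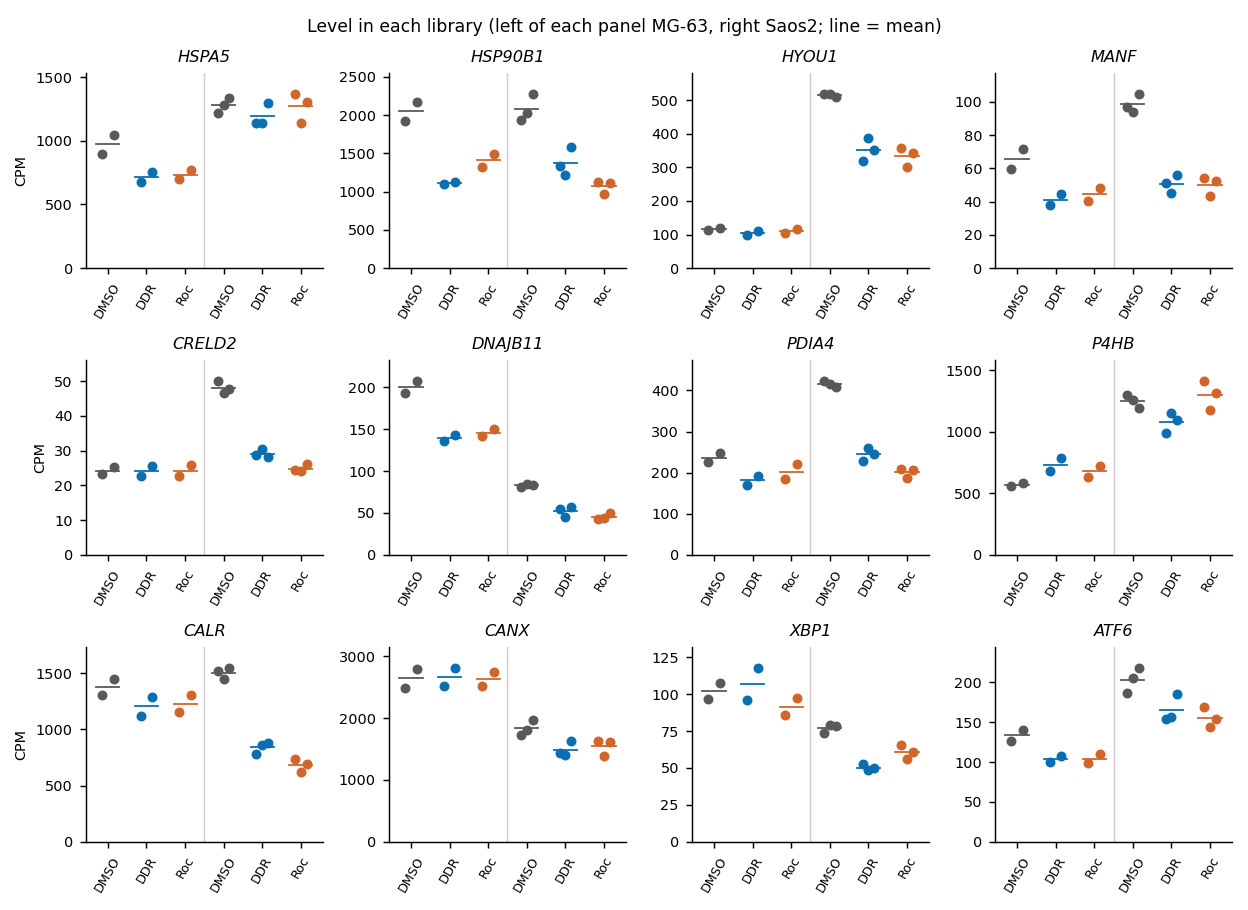
Level of 12 genes in each library (y axis, CPM from 0, points) with the group mean as a line, MG-63 left and Saos2 right of the grey divider, each line on its own scale. HSP90B1 and MANF stand lower with both compounds in both lines, CRELD2 and CALR drop far more in Saos2 than in MG-63, and the HSPA5 groups overlap in Saos2.

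Of the 7 co-chaperones and secreted regulators of BiP, 4 fell with each compound in Saos2, while in MG-63 DDR lowered 2 and Roc 1. The shares of all genes called lower were 6.73% (DDR) and 10.4% (Roc) in Saos2 and 7.74% and 2.53% in MG-63. MANF, a small secreted protein that binds BiP and protects cells from ER stress, fell in every comparison. It lay at 59.38 and 71.81 CPM with DMSO in MG-63, 38 and 44.33 with DDR and 40.43 and 48.44 with Roc, and in Saos2 at 97.19, 93.73 and 104.7 with DMSO, 51.07, 45.15 and 56.29 with DDR and 53.99, 43.13 and 52.53 with Roc. No groups overlapped with DMSO, and the MG-63 changes were −0.67 ± 0.10 and −0.56 ± 0.10, those in Saos2 −0.95 ± 0.10 and −0.98 ± 0.10 (edgeR adjusted p between 4.8e-08 and 0.00037). The Roc value in MG-63 was −0.41 without DMSO replicate 2 and −0.45 without Roc replicate 1, both under the fold minimum. DNAJB11, the J-domain protein that brings unfolded chains to BiP, was at 193 and 207.5 CPM with DMSO in MG-63, 135.8 and 143 with DDR and 141.4 and 150.3 with Roc. In Saos2 it was at 81.11, 85.07 and 83.04 CPM with DMSO, 54.64, 44.7 and 56.57 with DDR and 43.39, 44.13 and 49.91 with Roc. All treated libraries were lower, with changes of −0.68 ± 0.09 and −0.86 ± 0.09 in Saos2 (1.1e-05 and 1.9e-07) and −0.52 ± 0.07 with DDR in MG-63 (6.2e-06). The MG-63 Roc value of −0.46 ± 0.07 was just under the fold minimum, as was the DDR value without DDR replicate 1 (−0.49) or DMSO replicate 2 (−0.46).

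SDF2L1, a partner of the ERdj3 co-chaperone in BiP complexes, and CRELD2, a secreted protein with isomerase activity, fell in Saos2. SDF2L1 was at 8.586, 9.046 and 7.316 CPM with DMSO, 3.608, 4.17 and 5.329 with DDR and 4.339, 3.43 and 4.307 with Roc, below DMSO in each treated library. The changes were −0.93 ± 0.19 and −1.05 ± 0.19 (edgeR adjusted p = 0.00076 and 0.00013). In MG-63 it was sparse, at 2.167 and 2.181 CPM with DMSO, 1.98 and 1.986 with DDR and 0.9403 and 1.459 with Roc, and neither −0.13 ± 0.29 nor −0.83 ± 0.32 was called. The Roc value was called with at least 50 counts in every library of a group (−0.85, adjusted p = 0.04) and without Roc replicate 2 (−1.20, 0.046). CRELD2 was at 50.03, 46.46 and 47.73 CPM with DMSO in Saos2, 28.66, 30.36 and 28.16 with DDR and 24.38, 24.04 and 26.05 with Roc. These groups stood apart, with changes of −0.73 ± 0.09 (4.1e-06) and −0.95 ± 0.09 (3.5e-08). In MG-63 its 6 libraries lay between 22.57 and 25.82 CPM and the groups overlapped, with changes of −0.01 ± 0.10 and 0.00 ± 0.11. The other J-domain proteins were called in no comparison. They are DNAJB9 (between −0.03 and 0.25), a target of spliced XBP1 that represses IRE1, DNAJC3 (between −0.18 and 0.11), an inhibitor of eIF2α kinases, and the disulfide reductase DNAJC10. In MG-63 DNAJC10 stood at −0.40 ± 0.07 with DDR, and in Saos2 at −0.49 ± 0.08 with Roc, where the value passed the fold minimum under several alternatives, at −0.59 without DMSO replicate 1.

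Of the 5 disulfide isomerases, 2 fell with each compound in Saos2 and none was called in MG-63. Over all genes, 6.73% (DDR) and 10.4% (Roc) were called lower in Saos2, and 7.74% and 2.53% in MG-63. PDIA4 (ERp72) was at 423.1, 416.4 and 409.2 CPM with DMSO in Saos2, 229.3, 259.4 and 245.6 with DDR and 208.7, 186.6 and 206.7 with Roc. Its groups stood wide apart, with changes of −0.77 ± 0.07 (edgeR adjusted p = 9.2e-08) and −1.05 ± 0.07 (2.5e-10). Its MG-63 level was 225.0 and 248.4 CPM with DMSO, 171 and 192.4 with DDR and 183.6 and 220.3 with Roc, lower in each treated library, and −0.38 ± 0.09 and −0.23 ± 0.09 were under the fold minimum. TXNDC5 (ERp46), a thioredoxin-domain isomerase, was sparse, at 4.261, 3.83 and 3.534 CPM with DMSO in Saos2, 1.877, 2.378 and 2.68 with DDR and 2.789, 1.792 and 1.902 with Roc. The groups did not overlap and the changes were −0.74 ± 0.26 (0.033) and −0.85 ± 0.26 (0.011). The DDR call was lost without DDR replicate 1 (adjusted p = 0.13), DMSO replicate 1 (0.092) or DMSO replicate 2 (0.074). TXNDC5 shares 60.9% of its exon bases with the readthrough gene BLOC1S5-TXNDC5 on the same strand, so its count is uncertain. The MG-63 level was 6.747 and 5.207 CPM with DMSO, 7.688 and 8.416 with DDR and 5.56 and 6.244 with Roc, with 0.43 ± 0.17 for DDR under the fold minimum, though it was 0.63 and called without DMSO replicate 1.

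P4HB, the founding isomerase and a subunit of collagen prolyl hydroxylase, was not called, and its values ran the other way in MG-63. It was at 561.5 and 581.9 CPM with DMSO there, 678.3 and 785.6 with DDR and 632.9 and 725.8 with Roc, higher in every treated library, with changes of 0.36 ± 0.08 (edgeR adjusted p = 0.0017) and 0.25 ± 0.08 (0.039) under the fold minimum. In Saos2 its changes were −0.21 ± 0.08 and 0.06 ± 0.08. PDIA3 (ERp57), the isomerase that works with the lectins, was lower by less than the fold minimum, at −0.27, −0.16, −0.29 and −0.44 for DDR and Roc in MG-63 and then in Saos2. Its Roc value in Saos2 was called when scaled by library totals (−0.53) and without DMSO replicate 1 (−0.51), DMSO replicate 2 (−0.51) or Roc replicate 1 (−0.53). PDIA6, which limits IRE1 signalling, lay between −0.18 and −0.01 and was not called. It shares 25.2% of its exon bases with ATP6V1C2 on the other strand, and whether the counting used strand is not known.

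The lectins diverged. CALR (chr19:13049392-13055303), which encodes calreticulin, the soluble lectin that also stores calcium, was at 1521, 1448 and 1548 CPM with DMSO in Saos2, 785.1, 865.5 and 874.8 with DDR and 737.3, 622.4 and 693.8 with Roc. The treated libraries stood far below DMSO, with changes of −0.84 ± 0.08 (edgeR adjusted p = 3.9e-08) and −1.14 ± 0.08 (1.2e-10). Its MG-63 libraries gave 1307 and 1452 CPM with DMSO, 1119 and 1290 with DDR and 1152 and 1303 with Roc, all treated libraries just below both DMSO libraries, and −0.20 ± 0.09 and −0.17 ± 0.09 were not called. CANX (chr5:179105629-179158642), which encodes the membrane-bound lectin calnexin, was at 1735, 1807 and 1971 CPM with DMSO in Saos2, 1441, 1403 and 1627 with DDR and 1627, 1394 and 1620 with Roc. The treated libraries were lower, but −0.30 ± 0.08 and −0.25 ± 0.08 did not reach the fold minimum, and in MG-63 the groups overlapped, with 0.01 ± 0.08 and −0.01 ± 0.08. Both genes carry an ERSE.

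The genes of ERAD moved little. With DDR edgeR called none of the 7 tested in MG-63 or the 8 in Saos2, and 2 fell in Saos2 with Roc. Over all genes, DDR lowered 7.74% in MG-63 and 6.73% in Saos2, and Roc 10.4% in Saos2. Counts this small say little about the role. DERL1, a channel protein of the derlin family, was at 199.2, 203.5 and 198.2 CPM with DMSO in Saos2, 143.1, 145.1 and 156.8 with DDR and 142.9, 136.5 and 134 with Roc. Every treated library was lower, and the Roc value of −0.54 ± 0.07 was called (edgeR adjusted p = 2.4e-06), while the DDR value of −0.43 ± 0.07 (7.4e-05) was under the fold minimum. In MG-63 it was at 108 and 112.2 CPM with DMSO, 116.2 and 120 with DDR and 109.6 and 124.1 with Roc, with 0.10 ± 0.08 and 0.09 ± 0.08. DERL3, the derlin of secretory cells, had a count of 0 in all 6 MG-63 libraries, which allows at most 0.123 CPM in the shallowest of them (3 counts, counting error only). In Saos2 it had 19, 64 and 29 counts with DMSO, 1, 22 and 8 with DDR and 5, 12 and 1 with Roc. The DDR change of −1.53 ± 0.77 (edgeR adjusted p = 0.16) was not called, but limma-voom called it (−2.24, 0.043), as did edgeR without DDR replicate 2 (−2.82, 0.021). The Roc change of −2.52 ± 0.82 (0.018) rested on these few reads, and its call was lost without DMSO replicate 2 (adjusted p = 0.12) or Roc replicate 3 (0.077). DERL3 shares 77% of its exon bases with SMARCB1 on the other strand, so its level is uncertain.

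The ubiquitin ligase SYVN1 (HRD1) and its partners gave values on both sides of 0. SYVN1 stood at 0.32 ± 0.10 with DDR (edgeR adjusted p = 0.013) and 0.31 ± 0.10 with Roc (0.03) in MG-63 and at −0.19 ± 0.11 with each compound in Saos2, none past the fold minimum. SEL1L, which links the ligase to its substrates, lay between −0.16 and 0.07, and OS9, a lectin that selects them, between −0.12 and 0.25. OS9 shares 15.9% of its exon bases with AGAP2-AS1 on the same strand. HERPUD1, an unfolded protein response gene that scaffolds the ligase and holds an ERSE-II, was at 20.92, 23.11 and 24.54 CPM with DMSO in Saos2, 20.18, 19.85 and 20.94 with DDR and 21.07, 23.73 and 18.92 with Roc. The groups overlapped, and over both lines its changes lay between −0.18 and −0.10. EDEM1, a mannosidase-like protein that marks glycoproteins for removal, was at −0.32 ± 0.07 and −0.33 ± 0.07 in Saos2, lower in every treated library but under the fold minimum. DERL2 lay between −0.12 and 0.15.

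Of the sensors and their transcription factor, only XBP1 with DDR in Saos2 was called. XBP1 (chr22:29190543-29196585), whose spliced mRNA encodes the factor, was at 73.88, 79.02 and 78.36 CPM with DMSO in Saos2, 52.53, 48.32 and 50.05 with DDR and 65.7, 56.19 and 60.59 with Roc. All treated libraries were lower, the DDR libraries most, with changes of −0.62 ± 0.08 (edgeR adjusted p = 8.8e-06) and −0.34 ± 0.08 (0.0023). The MG-63 libraries gave 96.57 and 107.2 CPM with DMSO, 96.35 and 117.8 with DDR and 85.56 and 97.51 with Roc, groups that overlapped, with 0.07 ± 0.09 and −0.15 ± 0.09. Gene counts do not separate its spliced and unspliced forms. ATF6, the sensor that becomes a transcription factor after cleavage in the Golgi, was lower by less than the fold minimum in all 4 comparisons. In MG-63 it was at 127 and 140.7 CPM with DMSO, 100.1 and 107.3 with DDR and 99.22 and 109.6 with Roc, and in Saos2 at 186.3, 205.7 and 218.2 with DMSO, 153.8, 155.9 and 186 with DDR and 168.9, 144.2 and 153.7 with Roc. No treated library reached the DMSO libraries, and the changes were −0.37 ± 0.08, −0.36 ± 0.08, −0.30 ± 0.09 and −0.39 ± 0.09 (adjusted p between 0.0007 and 0.013). ERN1, which encodes the IRE1 kinase and nuclease, was at 6.391 and 4.831 CPM with DMSO in MG-63, 6.3 and 4.574 with DDR and 7.318 and 8.287 with Roc. In Saos2 it was at 30.02, 34.14 and 30.78 CPM with DMSO, 26.54, 26.88 and 31.57 with DDR and 30.85, 31.2 and 33.64 with Roc. The groups overlapped except for Roc in MG-63, where 0.48 ± 0.19 had an adjusted p of 0.075 and became 0.70 (0.047) without DMSO replicate 1.

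Of the remaining 3 genes, WFS1 fell in Saos2 with each compound. WFS1, the ER membrane protein lost in Wolfram syndrome, was at 26.82, 24.77 and 21.33 CPM with DMSO there, 11.5, 13.54 and 12.96 with DDR and 13.6, 11.16 and 13.61 with Roc. The treated libraries all lay well below, with changes of −0.94 ± 0.13 (edgeR adjusted p = 8.7e-06) and −0.93 ± 0.13 (4.4e-06). In MG-63 it was sparse, between 2.78 and 5.301 CPM, and the groups overlapped. SEC24D, the cargo adaptor of COPII vesicles that carries collagen, was at 83.11 and 80.38 CPM with DMSO in MG-63, 56.88 and 58 with DDR and 57.15 and 62.94 with Roc. It was lower in each treated library, called with DDR (−0.51 ± 0.08, 1.6e-05) and just under the fold minimum with Roc (−0.44 ± 0.08, 0.00026), and the DDR value was −0.50 without DDR replicate 1 and −0.48 without DMSO replicate 1, neither of them called. In Saos2 it was at 111.5, 114.2 and 115.8 CPM with DMSO, 93.42, 84.12 and 95.8 with DDR and 100.4, 99.48 and 104.4 with Roc, with −0.32 ± 0.07 and −0.17 ± 0.07 not called. SEC61B, a subunit of the channel through which chains enter the ER, lay between 0.03 and 0.14.

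The divergence within pairs of partners was also read as a ratio of counts inside each library, which no scaling between libraries can change. These 3 pairs were chosen after their values were seen, so the ratios are a description with no test. HSP90B1 had 2.15 and 2.08 reads for each read of HSPA5 with DMSO in MG-63, 1.62 and 1.49 with DDR and 1.89 and 1.94 with Roc. In Saos2 the ratio was 1.59, 1.58 and 1.71 with DMSO, 1.17, 1.07 and 1.22 with DDR and 0.824, 0.857 and 0.853 with Roc. HSPA5 thus had more reads than HSP90B1 with Roc. HSP90B1 has the longer exons (13092 bases against 6530), so more reads does not mean more transcripts. Per exon length HSPA5 was already the higher in Saos2 with DMSO, as given below. The CALR to CANX ratio was 0.877, 0.801 and 0.785 with DMSO in Saos2, 0.545, 0.617 and 0.538 with DDR and 0.453, 0.446 and 0.428 with Roc. In MG-63 that ratio moved less, from 0.524 and 0.518 to 0.443 and 0.458 with DDR and 0.457 and 0.474 with Roc. The PDIA4 to PDIA6 ratio was 0.445, 0.438 and 0.392 with DMSO in Saos2, 0.268, 0.306 and 0.244 with DDR and 0.221, 0.24 and 0.234 with Roc. Its MG-63 values were 0.235 and 0.232 with DMSO, 0.186 and 0.189 with DDR and 0.193 and 0.207 with Roc. In each pair and line every treated library had a lower ratio than every DMSO library.

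**Figure D3:**
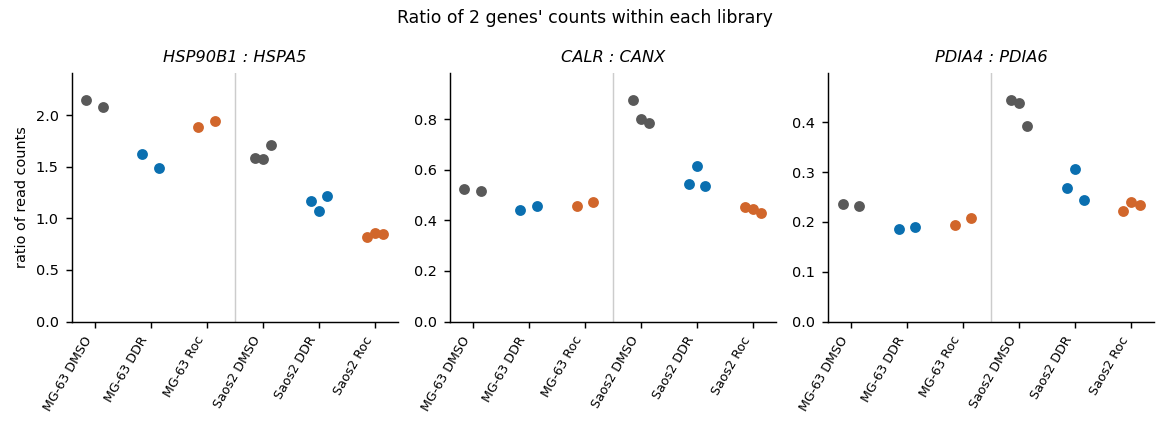
Ratio of the read counts of 2 genes within each library (y axis from 0, points), by line and treatment. The HSP90B1 to HSPA5 ratio in Saos2 goes from 1.58 or more with DMSO to 0.857 or less with Roc.

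Among the genes with promoter elements the size of the change varied, as set out here for Roc in Saos2 alone. With Roc in Saos2 the 6 genes with an ERSE ranged from −1.14 for CALR, −0.96 for HSP90B1 and −0.95 for CRELD2 to −0.34 for XBP1, −0.25 for CANX and −0.01 for HSPA5. The 3 genes with an ERSE-II ranged from −1.05 for SDF2L1 and −0.63 for HYOU1 to −0.11 for HERPUD1. Each of these changes was negative, and CALR, HSP90B1, CRELD2, SDF2L1 and HYOU1 were called lower. Among genes with a window and neither exact match, DNAJB11, MANF, PDIA4, TXNDC5 and WFS1 were called lower with Roc in Saos2. The other genes of that set were not called. Over all genes tested there, 10.4% were called lower, and a link between the elements and the response was not tested.

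The lines were compared by testing the difference between their responses (Saos2 minus MG-63) in 1 edgeR fit of all 15 libraries over the gene IDs in both tables. The response to DDR differed for 6 of the 31 genes and that to Roc for 5, each more negative in Saos2, against 13.3% and 13% of all genes called in either direction. In that direction alone, 1,189 (DDR) and 872 (Roc) of 18,842 genes were called. CALR was called for both compounds, at −0.61 ± 0.13 for DDR (adjusted p = 0.0016) and −0.92 ± 0.13 for Roc (1.1e-05), as was CRELD2, at −0.68 ± 0.15 (0.0026) and −0.91 ± 0.15 (0.00012). DERL1 was called for both as well, at −0.50 ± 0.11 (0.0027) and −0.58 ± 0.11 (0.00053). With DDR the other calls were XBP1 (−0.65 ± 0.14, 0.0023), P4HB (−0.54 ± 0.13, 0.005) and TXNDC5 (−1.14 ± 0.31, 0.012). With Roc they were PDIA4 (−0.78 ± 0.13, 9.5e-05) and HYOU1 (−0.51 ± 0.13, 0.0078). HSPA5 differed the other way, at 0.38 ± 0.13 (0.049) and 0.44 ± 0.13 (0.021), under the fold minimum. Its Roc difference was called without MG-63 DMSO replicate 1 (0.56), MG-63 Roc replicate 2 (0.54) or Saos2 Roc replicate 2 (0.51). For HSP90B1 the differences of 0.32 ± 0.14 (0.12) and −0.37 ± 0.14 (0.077) had opposite signs and were not called, with 95% intervals from 0.03 to 0.62 and from −0.66 to −0.08. For MANF they were −0.25 ± 0.17 and −0.38 ± 0.17, not called either. DESeq2 also called WFS1 for DDR (−0.77, adjusted p = 0.018) and SYVN1 (−0.51, 0.011) and TXNDC5 (−0.85, 0.038) for Roc, for which edgeR gave −0.74 (0.06), −0.46 (0.058) and −0.80 (0.085). WFS1 was also called for DDR with RLE or total scaling and with no low-count filter. Without MG-63 DDR replicate 2 only the CRELD2 difference for DDR was still called, at 1 of 31 genes, and CALR (−0.49), DERL1 (−0.47), XBP1 (−0.49), P4HB (−0.41) and TXNDC5 (adjusted p = 0.062) were not. HYOU1 lost its Roc call without MG-63 Roc replicate 2 (−0.39), MG-63 DMSO replicate 1 (−0.46), Saos2 DDR replicate 3 (−0.49) or Saos2 Roc replicate 2 (−0.45), and DERL1 lost its own without MG-63 Roc replicate 2 (−0.46). The DDR difference was also lost for P4HB without MG-63 DMSO replicate 1 or Saos2 DDR replicate 1 (−0.498 and −0.48), for TXNDC5 without MG-63 DMSO replicate 2 (adjusted p = 0.084) and for DERL1, which lay at the fold minimum, without any of 9 libraries or with at least 50 counts (−0.46 to −0.499).

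**Figure D4:**
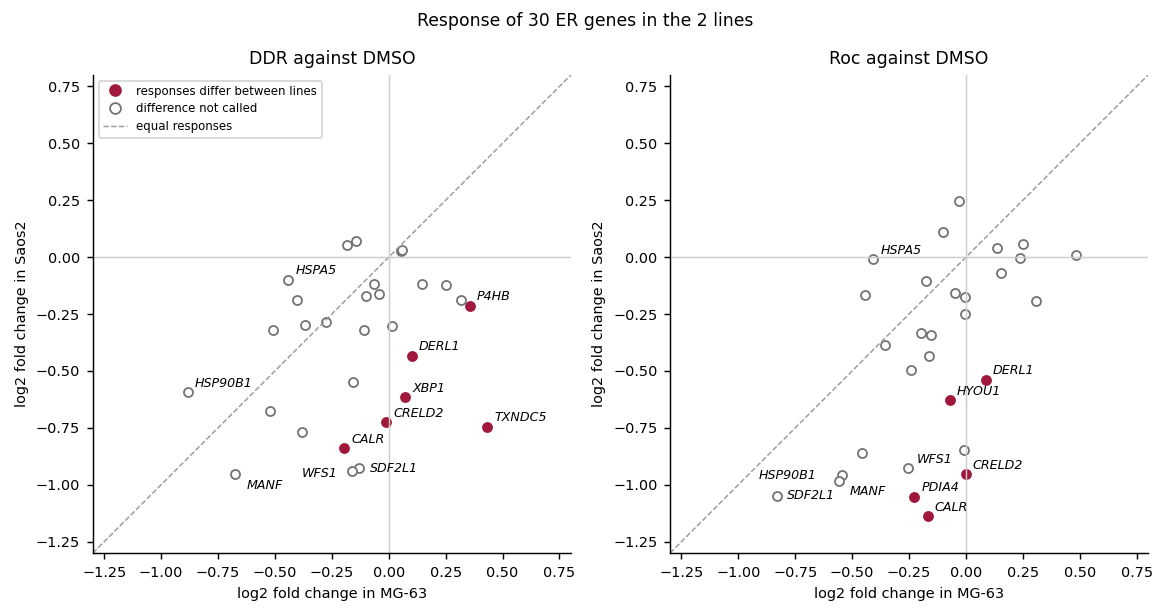
Log2 fold change against DMSO in MG-63 (x axis) and Saos2 (y axis) for the 30 genes tested in both lines, DDR left and Roc right; filled points are genes whose responses differed between the lines, and the dashed line marks equal responses. Most points lie below the dashed line, 23 of 30 for DDR and 25 of 30 for Roc.

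Over the 30 genes tested in both lines, the change in Saos2 was the more negative for 23 with DDR and 25 with Roc, against 6,650 and 6,813 of all 13,536 genes tested in both. As a description across genes, which share libraries and are not replicates, the changes in the lines had a Pearson r of 0.266 (Spearman rho 0.254) for DDR and 0.55 (0.538) for Roc. The same r over all genes was 0.228 and 0.284. Each line was processed into its own table with its own gene list and received its own concentrations, and these cannot be told apart from the line.

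DDR and Roc were set side by side at equal multiples of the growth IC50, so that their concentrations differed and a difference cannot be assigned to structure. None of the 30 genes was called between the compounds in MG-63 and none of the 31 in Saos2, where 1.2% and 3.76% of all genes were called. At an unadjusted p of 0.05, 6 and 8 members passed, and DESeq2 and limma-voom called 0 in either line. The share of all genes at that unadjusted p was not counted. For HSP90B1 the Roc libraries were above the DDR libraries in MG-63, at 0.34 ± 0.08 (95% interval 0.17 to 0.51, edgeR adjusted p = 0.018), and below them in Saos2, at −0.36 ± 0.09 (−0.55 to −0.18, 0.012), both under the fold minimum. In Saos2, CALR (−0.30 ± 0.08), PDIA4 (−0.29 ± 0.07) and DNAJC10 (−0.31 ± 0.09) stood lower with Roc and P4HB (0.27 ± 0.08) and XBP1 (0.27 ± 0.08) higher, each with an adjusted p between 0.014 and 0.042. For MANF the interval ran from −0.10 to 0.33 in MG-63 and from −0.23 to 0.18 in Saos2.

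The DMSO libraries show the levels in each line after 24 h with the vehicle alone. Differences in these levels between the lines cannot be told apart from the separate processing of each line. Per exon length (RPKM, on a scale shared by both lines, lengths from GENCODE v44 lifted to GRCh37), CALR was the highest member in each line, at 603 ± 51.5 in MG-63 (SD, n = 2) and 482 ± 17.4 in Saos2 (SD, n = 3), followed by PDIA6 at 303 ± 27.7 and 215 ± 13.4. HSP90B1 (179 to 205) and HSPA5 (167 to 198) overlapped in MG-63, after CANX (220 to 251). In Saos2 the order was HSPA5 (165 to 185), HSP90B1 (132 to 157), CANX (112 to 130), PDIA4 (112 to 114) and P4HB (97.4 to 104), where only CANX and PDIA4 overlapped. ERN1 (0.358 and 1.48), WFS1 (0.895 and 3.42), TXNDC5 (1.68 and 0.797) and DERL3 (0 and 0.233) were the lowest. Exon lengths here count every annotated isoform, so the order depends on the annotation.

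**Figure D5:**
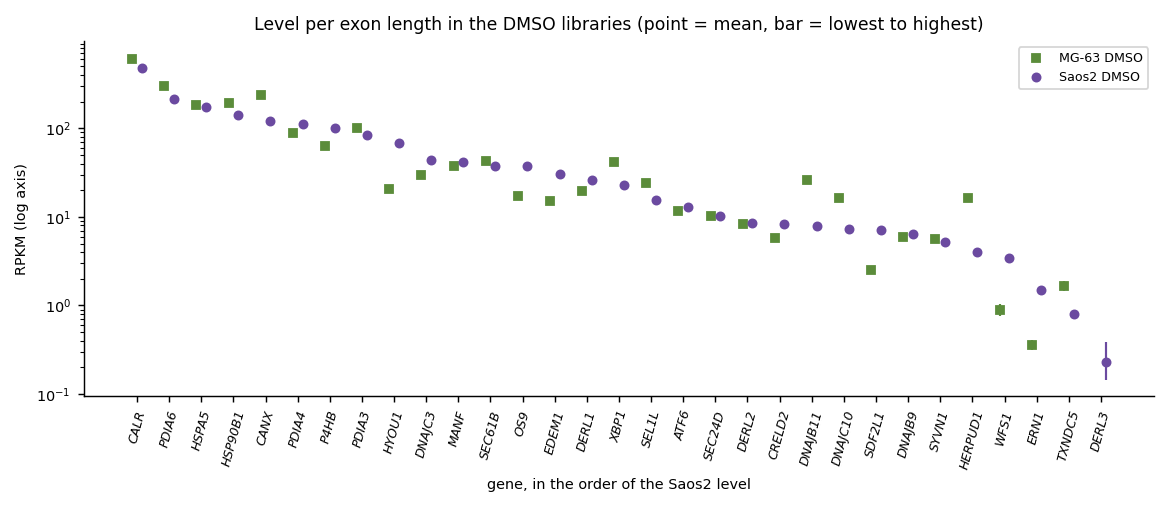
Level per exon length in the DMSO libraries (y axis, RPKM, log scale), points for the mean and bars from the lowest to the highest library, MG-63 squares and Saos2 circles. The lines keep a similar order, with CALR on top, and part clearly at HYOU1, DNAJB11, HERPUD1, WFS1 and ERN1, and DERL3 has no MG-63 point because its count was 0.

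With DMSO, 10 of the 31 genes were higher and 7 lower in Saos2, against 36.3% and 31.4% of all genes. HYOU1 (1.70 ± 0.10), WFS1 (1.93 ± 0.20), ERN1 (2.05 ± 0.15), SDF2L1 (1.49 ± 0.24), OS9 (1.13 ± 0.10) and EDEM1 (1.01 ± 0.08) were each more than 1 higher on the log2 scale (edgeR adjusted p at most 4.2e-06), and DERL3 was also called, with no fold given because its MG-63 counts were 0. HERPUD1 (−1.999 ± 0.10), DNAJB11 (−1.72 ± 0.09), DNAJC10 (−1.18 ± 0.09), TXNDC5 (−1.07 ± 0.21), CANX (−0.97 ± 0.09), XBP1 (−0.85 ± 0.10) and SEL1L (−0.62 ± 0.09) were lower. HSPA5 (−0.05 ± 0.09) and MANF (0.14 ± 0.12) were not called. The median over all genes was 0.16, and scaling by library totals moved it to 0.64, with 17 members then higher and 4 lower. CANX (−0.50), XBP1 (−0.37) and SEL1L (−0.14) were not called on that scale.

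A wider list of ER genes outside the 31 was read in the same tests. In MG-63, 192 were tested, of which DDR raised 9 and lowered 18, and Roc raised 7 and lowered 6. Over all genes there, 9.01% were called higher and 7.74% lower with DDR, and 4.57% and 2.53% with Roc, so the counts of the list in MG-63 were near or under the background. In Saos2, 194 were tested, of which DDR raised 0 and lowered 37, and Roc raised 5 and lowered 47. The background there was 7.55% higher and 6.73% lower with DDR, and 13.5% and 10.4% with Roc. The counts of each smaller list below are to be read against the same shares, and no list was tested as a set. The medians were −0.08, −0.05, −0.22 and −0.24. MBTPS1, the site-1 protease that cleaves ATF6 and the sterol factors SREBP in the Golgi, fell in all 4 comparisons, with MG-63 changes of −1.02 ± 0.08 and −0.71 ± 0.08 and Saos2 changes of −1.03 ± 0.08 and −1.60 ± 0.08 (edgeR adjusted p at most 1.2e-06). SPCS3, a subunit of signal peptidase, fell in all 4 (−0.98, −0.85, −0.75 and −1.14), as did KDELR3, a receptor that returns escaped chaperones from the Golgi (−0.67, −0.53, −1.05 and −1.43). ATF6B, the relative of ATF6, fell in 3 (−0.50, −0.77 and −0.95, DDR in MG-63 and both in Saos2), and was not called with Roc in MG-63 (−0.13).

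Among 34 other folding factors tested, MG-63 had 7 lower with DDR and 2 with Roc, and Saos2 had 9 and 14. RCN3, a calcium-binding reticulocalbin, fell in Saos2 (−1.57 ± 0.14 and −2.03 ± 0.14) and stood at −0.15 ± 0.12 and −0.41 ± 0.12 in MG-63, uncalled. The calcium-binding proteins SDF4 (−0.90 and −0.92) and CALU (−0.68 and −0.84) fell in Saos2, and the prolyl isomerase FKBP7 fell there (−0.83 and −1.44) and, with DDR, in MG-63 (−0.69). Of 18 other oxidative folding enzymes, DDR lowered 2 and raised 1 and Roc raised 2 in MG-63, while 3 (DDR) and 6 (Roc) fell in Saos2. PDIA5 fell in Saos2 (−1.15 and −1.54) and, with DDR, in MG-63 (−0.70), SELENOF with DDR in MG-63 (−0.58) and TXNDC12 with Roc in Saos2 (−0.79). The sulfhydryl oxidase QSOX1 rose in MG-63 (0.77 and 0.51) and fell with DDR in Saos2 (−0.56).

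Among 31 other ERAD genes, DDR raised 1 and lowered 2 and Roc raised 1 in MG-63, while 4 (DDR) and 6 (Roc) fell in Saos2. VCP, the ATPase that pulls chains out of the membrane, and its cofactor UFD1 fell in Saos2 (−0.89 and −0.84, −0.63 and −0.93), while MAN1A2 and ERLIN2 fell in Saos2 with Roc (−0.60 and −0.87) and in the other line with DDR (−0.62 and −0.68). Among 22 other regulators of the unfolded protein response, DDR raised 5 and lowered 3 and Roc raised 3 and lowered 1 in MG-63, while in Saos2 DDR lowered 5 and Roc raised 4 and lowered 4. Those that rose included CEBPB (MG-63 1.10 and 0.73, Saos2 0.80 with Roc) and SESN2 (MG-63 1.56 and 0.73, Saos2 0.89 with Roc), a leucine sensor under ATF4. Of 35 genes of the translocon, signal peptidase and N-glycosylation, DDR raised 1 and lowered 1 and Roc lowered 2 in MG-63, while each compound lowered 5 in Saos2, including the oligosaccharyltransferase subunits DDOST (−0.73 and −0.76) and RPN1 (−0.53 and −0.58), while TRAM1 rose with DDR in MG-63 (0.57). Of the COPII and ER-Golgi transport genes, DDR and Roc lowered 3 and 1 of 35 in MG-63, against 10 and 11 of 37 in Saos2, where KDELR2 (−0.68 and −0.73), TMED9 (−0.98 and −0.92) and the cargo receptor SURF4 (−0.73 and −0.69) were among them. Of 18 genes of ER-phagy and ER shape, each compound raised 1 in MG-63, DDR lowered 1 in Saos2, and Roc raised 1 and lowered 1 there. RTN3 fell in Saos2 (−0.72 and −0.79), REEP5 rose with Roc there (0.61), and RETREG3 rose in MG-63 (0.51 and 0.54).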

How the data were processed

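The authors prepared TruSeq stranded mRNA libraries, removed ribosomal, transfer and mitochondrial reads with Bowtie2 (2.5.1), aligned 100-bp read pairs to GRCh37 with STAR (2.7.3a) and counted genes with HTSeq (0.11.2). Neither a strand setting nor an annotation release was given in the sources used here. The deposited raw counts per gene, not normalized, were used in 15 columns, and 55 other per-sample columns (DESeq2-normalized counts, Cufflinks 2.2.1 FPKM and copies) were not. The authors' fold change and p-value columns were not used.

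In R 4.3.3, edgeR 4.0.16 (filterByExpr, TMM, glmQLFit, glmQLFTest) fitted the 3 groups of a line together, over 15,303 genes in MG-63 and 17,593 in Saos2. The lines were compared in 1 fit of 15 libraries over 18,842 genes, from 52,684 IDs in both tables. Each SE was derived from the log2 fold change and its F statistic, and intervals are 95%. The test was checked on simulated counts, with planted changes larger than the fold minimum and the same dispersion for all genes. That check does not cover changes near the fold minimum. Alternatives were DESeq2 1.42.0, limma-voom (limma 3.58.1), RLE or total scaling, no filter or at least 50 counts, no fold minimum, the compared groups alone, a replicate block and each library left out.

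Per-library values are given for called members and for HSPA5, HSP90B1, XBP1, ERN1 and ATF6, and for some others for contrast. Of each other list, up to 4 called genes with the smallest p are named. All listed ER genes matched by a current or older symbol, and then by gene ID in both tables. The members and lists were chosen with earlier results of these data known.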

Additional observations from a re-analysis of the deposited data

Results flagged for a closer look

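The response to a compound differed between the lines, by a test of the difference itself (Saos2 minus MG-63, edgeR), for 6 of the 31 genes with DDR and 5 with Roc. Over all genes tested 13.3% and 13% were called in either direction, while every member called was more negative in Saos2. In that direction alone, 1,189 (DDR) and 872 (Roc) of 18,842 genes were called. For DDR these were CRELD2 (−0.68), P4HB (−0.54), TXNDC5 (−1.14), CALR (−0.61), DERL1 (−0.50) and XBP1 (−0.65). For Roc they were HYOU1 (−0.51), CRELD2 (−0.91), PDIA4 (−0.78), CALR (−0.92) and DERL1 (−0.58). Groups of 2 or 3 libraries are too small for a search for outlying libraries.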

How the results depend on the processing

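No member called in edgeR changed sign under any alternative run, and no member was called higher in the 4 comparisons against DMSO by DESeq2 or limma-voom. Without a fold minimum, members called lower were 9 (DDR) and 7 (Roc) in MG-63, 18 with each compound in Saos2, 4 for Roc against DDR in Saos2 and 11 for the DMSO level. Members called higher without it were 4 (DDR) and 2 (Roc) in MG-63, 1 and 2 for Roc against DDR in MG-63 and Saos2, 12 for the DMSO level and 1 for each difference between the lines. No share of all genes without a fold minimum was counted beside these. With no low-count filter 2 members were lower with DDR in MG-63, DNAJB11 and SEC24D being −0.50 and −0.48. Scaling by library totals gave 17 higher and 4 lower for the DMSO level and moved the median of all genes to −0.11 with Roc in Saos2.

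Leaving out each library in turn gave 2 to 5 members lower with DDR and 0 to 4 with Roc in MG-63, and 9 to 12 and 12 to 14 in Saos2. The differences between the lines gave 1 to 7 lower for DDR and 3 to 7 for Roc, and the DMSO level 7 to 9 lower and 9 to 10 higher. Members higher were 0 to 1 with DDR, with Roc and for Roc against DDR in MG-63 and for the Roc difference between the lines. Of the comparisons against DMSO, Roc in MG-63 had 0 called lower without DMSO replicate 2 or Roc replicate 1, and 4 without DMSO replicate 1 or Roc replicate 2. The cause was not tested.

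The deviations of same-numbered libraries from their group means had r between −0.012 and 0.024 in MG-63 and between 0.003 and 0.143 in Saos2, against −0.024 to 0.012 and −0.111 to 0.028 for libraries with different numbers. In MG-63 the 2 libraries of a group deviate by equal and opposite amounts, so its ranges are mirror images. Only the same-numbered values inform there. They were 0.001 for DMSO with DDR, 0.024 for DMSO with Roc and −0.012 for DDR with Roc, small and of both signs. In Saos2 every same-numbered pair had a positive r, though not all exceeded 0.1. The deviations within a Saos2 group also cancel out, which pulls different-numbered values the other way. The numbers were not taken to pair the libraries, and these values do not settle whether they do in Saos2. With the replicate block, members lower were 4, 2, 11 and 12 in the comparisons against DMSO, and 7 (WFS1 added, −0.76, adjusted p = 0.023, as also with DESeq2, RLE or total scaling and no low-count filter) and 5 for the differences between the lines, and it changed no other call. Depth limits DERL3, TXNDC5, SDF2L1, WFS1 and ERN1 in MG-63, and DERL3, TXNDC5 and SDF2L1 in Saos2 as well, with under 10 CPM.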
